A study of Mus musculus with 25 samples.

Results

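Ly6c2, Ly6i, Trem3, Cd177, Napsa, Plac8, Bmx, Vcan and Hp were followed as 9 genes of blood monocytes, out of 24537 gene models in the deposited count table. They were found by their gene symbols, and they had been chosen with their high level in blood monocytes and low level in adipose macrophages known, so that contrast is described here and not tested. RNA was sequenced from 25 mouse libraries of 200 sorted cells each, from C57BL6 mice on a high fat diet (HFD, 45% fat) or a control diet (CD, 10% fat). The adipose cells came from white adipose tissue, named eWAT in the titles, and were sorted as pop4 (Tim4-, CD11c+, MHCII+), pop3 (Tim4-, CD11c-, MHCII high), pop2 (Tim4+, MHCII high) and pop1 (Tim4+, MHCII low), with 2 HFD and 2 CD libraries in each. Blood monocytes, sorted on CD115 and Ly6C, gave 3 HFD libraries and 6 CD libraries. The labels do not say which level of Ly6C was kept. Of the CD monocyte libraries, 3 are titled CD and 3 are titled CD-CD, whereas every CD library of adipose tissue is titled CD-CD, so within adipose tissue the diet and the title series cannot be told apart. Neither the number of animals per library nor the length of the diets is given in the labels, so p-values measure the spread between these libraries, which may be technical.

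Monocytes that carry high Ly6C on their surface are called classical monocytes. They leave the bone marrow, circulate briefly and enter tissues through the chemokine receptor CCR2, where many become macrophages and switch off genes of the blood stage. Adipose tissue holds long-lived resident macrophages, of which Tim4 is a marker in many mouse tissues, and macrophages that derive from recruited monocytes, and CD11c+ macrophages are known to gather there in obesity. The 9 genes have different roles. Ly6c2 and Ly6i encode small lipid-anchored surface proteins of the Ly6 family, and Ly6c2 encodes Ly6C itself. Trem3 encodes a mouse receptor that triggers myeloid cells through the adaptor DAP12. Cd177 encodes a lipid-anchored surface protein best known from neutrophils. Napsa encodes napsin A, an aspartic protease of the endosomal and lysosomal route that is best known from lung and kidney. Plac8 encodes a small cysteine-rich protein. Bmx encodes a cytoplasmic tyrosine kinase of the TEC family. Vcan encodes versican, a large proteoglycan of the extracellular matrix. Hp encodes haptoglobin, the plasma protein that binds free haemoglobin, which liver and adipocytes also make.

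On mm10, as the count table gives it, Ly6c2 lies at chr15:75108161-75111949, Ly6i at chr15:74979812-74983430, Trem3 at chr17:48247729-48258847 and Cd177 at chr7:24743983-24760311. Napsa lies at chr7:44572445-44586846, Plac8 at chr5:100553733-100572205, Bmx at chrX:164192842-164258193, Vcan at chr13:89655310-89742512 and Hp at chr8:109575128-109579172. All 9 are protein-coding models with 1 copy in the genome, and none overlaps another gene model of the table. Of all 50-base windows of the GENCODE transcript, 32.6% for Ly6c2 also occur in its neighbour Ly6c1, and 8.93% for Ly6i and 5.74% for Cd177 occur in other genes. The counts of these 3 genes are uncertain, because the treatment of reads with several matches is not given in the sources used here. The share of windows does not bound the error, which also depends on the level of the other gene. No such window was shared for Trem3, Napsa, Plac8, Bmx, Vcan or Hp.

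Promoters of 5 members, from 250 bases before to 50 bases after the transcription start (RefSeq, GRCm38.p6), were searched because the members were high together in monocytes. The RefSeq promoters used here hold no entry for Ly6i, Trem3, Napsa or Hp, so the promoters of those genes were not searched. The searched letters were GAGGAA, a core bound by PU.1, and TTGCNNAA, a form of the C/EBP site, both being factors of the myeloid lineage, on either strand. GAGGAA occurred in 3 of the 5 promoters, against 28.3% of 32851 promoters of the same length, and TTGCNNAA in 0 of the 5, against 10.8%. The 3 promoters with a match are shown in lower case, 5′ to 3′ on the gene's strand, with GAGGAA or its reverse complement in capitals. Ly6c2 is chr15:75111888-75112187, Cd177 is chr7:24760262-24760561 and Plac8 is chr5:100572156-100572455, all on the minus strand. For Ly6c2 and Plac8 the RefSeq table holds 2 starts, and the one nearest to the start of the counted gene model was used, at a distance of 12 bases for Ly6c2 and 0 for Plac8.
Ly6c2: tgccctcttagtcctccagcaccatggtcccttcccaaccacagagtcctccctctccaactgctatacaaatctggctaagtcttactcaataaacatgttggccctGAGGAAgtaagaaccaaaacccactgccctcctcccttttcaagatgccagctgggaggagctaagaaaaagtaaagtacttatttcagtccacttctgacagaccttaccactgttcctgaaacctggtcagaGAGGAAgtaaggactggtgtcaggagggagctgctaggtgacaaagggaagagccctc
Cd177: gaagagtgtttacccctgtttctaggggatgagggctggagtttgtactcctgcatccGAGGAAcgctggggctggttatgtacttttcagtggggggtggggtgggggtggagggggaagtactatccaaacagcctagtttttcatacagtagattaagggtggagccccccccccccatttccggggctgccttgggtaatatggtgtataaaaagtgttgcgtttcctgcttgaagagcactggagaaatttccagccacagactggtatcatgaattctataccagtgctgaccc
Plac8: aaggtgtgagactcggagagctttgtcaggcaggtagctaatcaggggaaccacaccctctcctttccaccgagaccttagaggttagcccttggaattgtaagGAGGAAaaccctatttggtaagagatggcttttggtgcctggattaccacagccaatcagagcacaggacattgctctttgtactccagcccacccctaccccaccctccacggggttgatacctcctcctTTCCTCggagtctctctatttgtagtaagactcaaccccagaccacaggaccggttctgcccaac
The matches begin 142 and 8 bases before the start of Ly6c2, 192 bases before that of Cd177, and 146 and 15 bases before that of Plac8. The promoters of Bmx and Vcan hold neither run of letters. A match is a run of letters and not a measured binding site, and the count of 3 in 5 promoters is too small to set against the share of all promoters.

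Libraries held 3.75 to 9.34 M counts, with 3.75 to 5.86 M in pop2 and 6.50 to 9.34 M in monocytes. Values are given in CPM, read counts relative to library size, after TMM scaling by a factor per library that ran from 0.893 to 1.15. A floor of 3 counts was worth 0.341 to 0.698 CPM, and it covers counting error only, because no molecular identifiers were counted. Of the 24537 gene models, 16961 passed the filter on low counts, among them all 9 members, but Ly6i, Trem3 and Bmx passed through the monocyte libraries alone. The sort labels were checked on the genes of the gates. Csf1r, which encodes CD115, averaged 292, 497, 591 and 616 CPM in pop4, pop3, pop2 and pop1 and 455 CPM in monocytes. Timd4, which encodes Tim4, averaged 312 and 438 CPM in pop2 and pop1, against 2.72 and 3.27 CPM in pop4 and pop3, and Itgax, which encodes CD11c, averaged 185 CPM in pop4, against 20.1, 1.62 and 0.828 CPM in pop3, pop2 and pop1. Ly6c2 belongs to the monocyte gate, so its level there follows the sort. The summed level of 9 neutrophil genes was 6.67 to 352 CPM in adipose libraries and 88.2 to 284 CPM in monocytes. Of these, Ly6g, Cxcr2, Camp and Ngp averaged at most 1.21 CPM in any population, whereas Csf3r, the receptor of granulocyte colony-stimulating factor, averaged 0.556, 18.6, 24.3 and 49.0 CPM in pop4, pop3, pop2 and pop1 and 136 CPM in monocytes. Mmp9, a gelatinase, averaged 3.71, 131, 178 and 144 CPM in pop4, pop3, pop2 and pop1 and 0.496 CPM in monocytes. The part of these genes' source cells in the members' values was not tested. The summed level of 10 resident macrophage genes was 2111 to 8338 CPM in adipose libraries and 397 to 679 CPM in monocytes.

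In monocytes, the members were moderately to strongly expressed in every library. Over the 9 monocyte libraries, Plac8 ran from 565 to 983 CPM (median 668), Napsa from 467 to 593 CPM (median 512) and Ly6c2 from 434 to 674 CPM (median 485). Vcan ran from 214 to 859 CPM (median 476), Hp from 268 to 478 CPM (median 357), and Cd177 from 135 to 251 CPM (median 191). Ly6i ran from 95.1 to 181 CPM (median 128), Trem3 from 55.0 to 190 CPM (median 126) and Bmx from 46.7 to 220 CPM (median 102). Napsa was the steadiest of the 9, with a coefficient of variation of 7.61% over the 9 libraries, and Bmx and Vcan varied most, with 53.1% and 45.8%. Per kilobase of gene model, the mean level was 1005 CPM for Plac8, 628 for Ly6c2, 355 for Napsa, 276 for Hp, 148 for Ly6i, 122 for Trem3, 69.9 for Cd177, 38.5 for Vcan and 34.0 for Bmx. In that order the libraries of each gene overlapped those of the next, except between Ly6c2 and Napsa.

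Every adipose library lay below every monocyte library for each of the 9 genes, which was true of 394 of 16961 genes tested (2.32%). The members had been chosen on this contrast, so their count is a description. The size of the gap differed. The lowest monocyte library held 195 times the CPM of the highest adipose library for Ly6i, 39.4 times for Trem3, 34.0 times for Cd177, 24.1 times for Bmx and 19.9 times for Ly6c2. It held 7.92 times for Plac8, 6.09 times for Vcan and 4.88 times for Hp, and 1.76 times for Napsa. Adipose tissue went through collagenase digestion with flavopiridol, which blocks transcription, and no digestion is described for blood, so tissue and handling cannot be told apart. Nor can fewer cells that carry an RNA be told apart from less of it per cell in libraries of 200 cells.

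**Figure D1:**
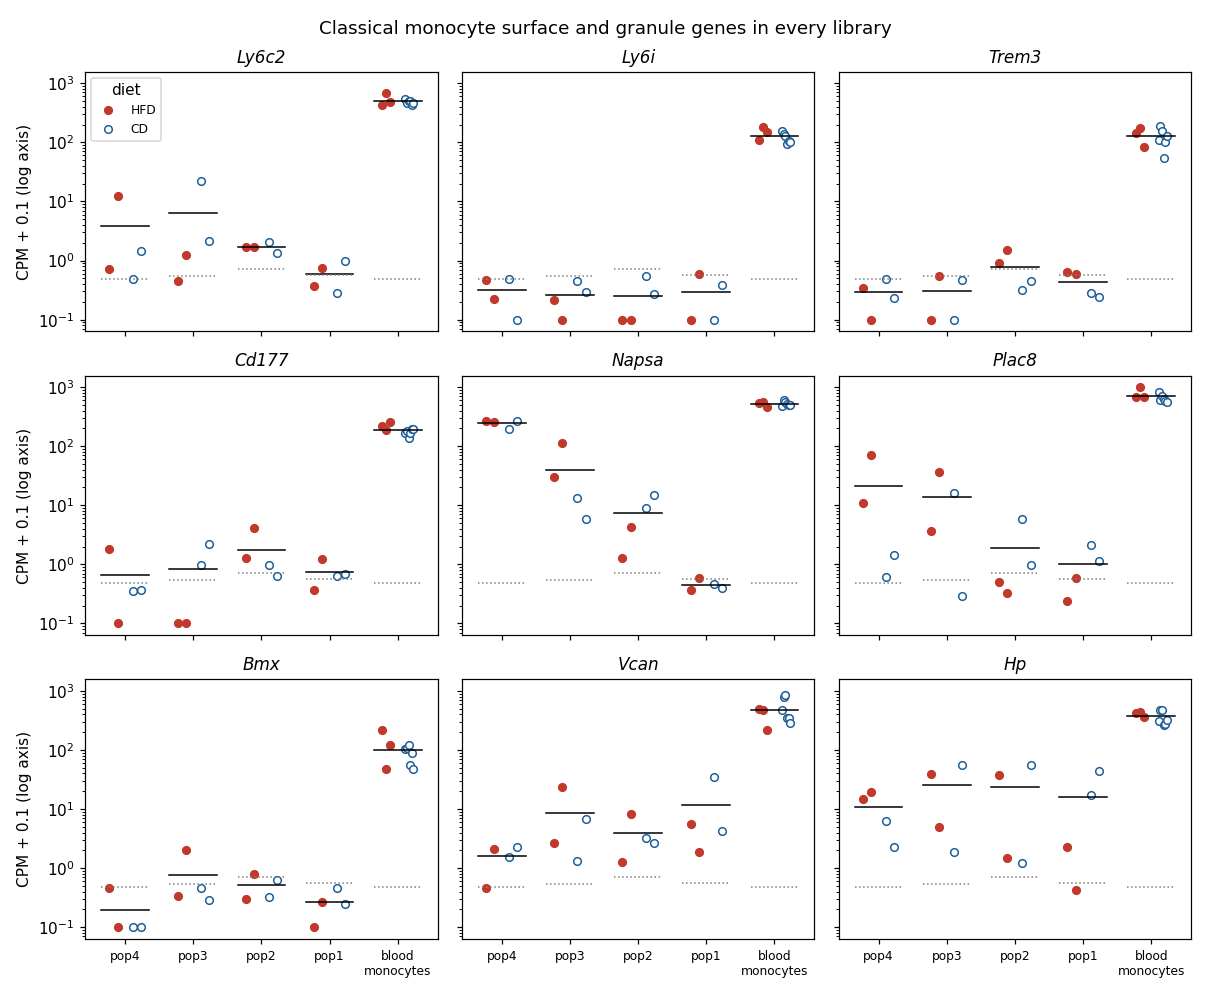
CPM plus 0.1 of the 9 genes (log axis) in each of the 25 libraries, by population, with HFD libraries as filled and CD libraries as open circles. Solid lines are population means, and dotted lines are the mean floor of 3 counts. Monocytes lie above all adipose libraries in every panel, and among the adipose populations Napsa is highest in pop4 and lowest in pop1.

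The share of the monocyte level that was kept, as mean CPM of a population over the mean of the 9 monocyte libraries, separated Napsa from the other members in pop4. Napsa was kept at 47.2% in pop4, 7.64% in pop3, 1.41% in pop2 and 0.0679% in pop1, where the floor of 3 counts was worth 0.0892%. It had the highest share of the 9 genes in pop4 and pop3, ranked below Hp in pop2 and had the lowest share in pop1. Hp was kept at 2.85%, 6.85%, 6.43% and 4.37% in pop4, pop3, pop2 and pop1. Plac8 was kept at 3.04% and 2.02% in pop4 and pop3 and at 0.261% and 0.132% in pop2 and pop1. Vcan was kept at 0.310%, 1.80%, 0.785% and 2.43% in pop4, pop3, pop2 and pop1, and Ly6c2 at 0.743%, 1.27%, 0.321% and 0.0993%. The other members, Cd177, Ly6i, Trem3 and Bmx, were kept at no more than 0.869% anywhere, and the mean lay under the floor of 3 counts in 11 of the 36 pairs of a member and a population. A share above 5% was found in 4 of those 36 pairs, for Napsa in pop4 and pop3 and for Hp in pop3 and pop2.

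Several of these shares rest on single libraries. Without pop3 HFD3, the share of Napsa in pop3 was 3.10%, below that of Hp (8.70%), and from CD libraries alone it was 1.79%, against 13.6% from HFD libraries alone. In pop4, leaving out each library in turn kept the share of Napsa between 45.9% and 50.4%. Without pop4 HFD3, Plac8 was kept at 0.618% and Ly6c2 at 0.157% in pop4. Without pop3 CD-CD7, Ly6c2 was kept at 0.238% in pop3, and without pop1 CD-CD7, Vcan was kept at 0.792% in pop1. Without pop3 HFD3, Plac8 was kept at 0.958%, Vcan at 0.740% and Bmx at 0.256% in pop3. Without pop2 HFD3, Cd177 was kept at 0.459%, Vcan at 0.480% and Trem3 at 0.358% in pop2, and without pop2 CD-CD8, Napsa was kept at 0.921%. Without the CD-CD8 library of each population, Hp was kept at 4.17% in pop3, 3.65% in pop2 and 1.80% in pop1.

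**Figure D2:**
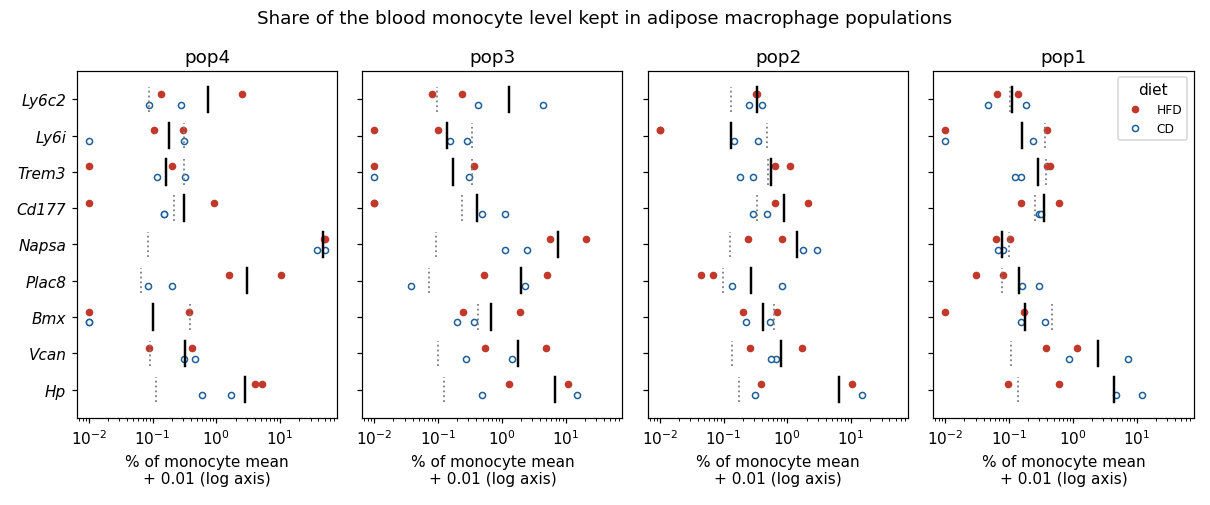
Share of the monocyte mean (percent plus 0.01, log axis) of each member in the libraries of pop4, pop3, pop2 and pop1, with HFD libraries as filled and CD libraries as open circles. Solid bars are population shares and dotted bars are the share that 3 counts per library would give. Napsa stands at 47.2% in pop4 and at 0.0679% in pop1, under the bar for 3 counts.

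Another 18 genes of classical monocytes were taken for comparison from a list that does not contain the members. Their median share was 33.8%, 40.5%, 31.0% and 37.9% in pop4, pop3, pop2 and pop1, against medians of 0.310%, 1.27%, 0.544% and 0.166% for the members, which had been chosen for low shares. Ccr2, the chemokine receptor of monocyte recruitment, averaged 1521, 1167, 350 and 28.3 CPM in pop4, pop3, pop2 and pop1 and 2140 CPM in monocytes. In pop1 it had 9.90 and 4.06 CPM in HFD2 and HFD3, against 96.6 and 2.48 CPM in CD-CD7 and CD-CD8, so that CD-CD7 carries the mean, which is 5.48 CPM without it. Lyz2, the lysozyme of macrophages, averaged 1283, 986, 1007 and 977 CPM in the same order and 2205 CPM in monocytes. Chil3, a chitinase-like secreted protein, and Mmp8, a collagenase stored in neutrophil granules, behaved like the members, at 15.05, 2.82, 1.55 and 0.714 CPM and at 2.51, 0.968, 1.41 and 0.820 CPM, against 709 and 713 CPM in monocytes. For 8 non-classical monocyte genes the median share was 8.15%, 10.4%, 12.2% and 5.38%.

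Napsa had 266 and 259 CPM in pop4 HFD2 and HFD3 and 195 and 265 CPM in pop4 CD-CD7 and CD-CD8. In pop3 it had 29.8 and 111 CPM in HFD2 and HFD3 and 12.96 and 5.84 CPM in CD-CD7 and CD-CD8. In pop2 it had 1.19 and 4.19 CPM in HFD2 and HFD3 and 9.04 and 14.99 CPM in CD-CD7 and CD-CD8, and in pop1 between 0.275 and 0.487 CPM, which is 2 or 3 counts. All pop4 libraries lay above all pop3 libraries, pop3 and pop2 overlapped, and all pop2 libraries lay above all pop1 libraries. Mean levels were 246 ± 34.3 CPM in pop4, 39.9 ± 48.4 in pop3, 7.35 ± 6.03 in pop2 and 0.354 ± 0.0963 in pop1 (SD, n = 4 each).

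Between pop4 and pop3, Napsa was higher in pop4 by 3.25 on the log2 scale (SE 0.35, adjusted p = 6.06e-06, edgeR's quasi-likelihood test with Benjamini-Hochberg adjustment over all genes tested). It was the only one of the 9 members called in this comparison, in which 6.57% of all genes tested were called, at an adjusted p under 0.05. Of the 9, Ly6i, Trem3, Bmx and Cd177 were at or near the floor in both populations, which limits this count here and between the other adipose populations. Over all genes edgeR called 394 higher and 720 lower in pop4 than in pop3, and 298 higher and 882 lower under DESeq2's scaling, where the median over all genes shifted by -0.13. Between pop3 and pop2, Napsa was higher in pop3 by 2.18 (SE 0.36, edgeR adjusted p = 0.00319), again as 1 of 9 members, against 1.03% of all genes. In the HFD libraries Napsa averaged 70.4 CPM in pop3 and 2.69 CPM in pop2, whereas in the CD libraries it averaged 9.40 CPM in pop3 and 12.0 CPM in pop2, so the order of the means differed by diet. That call was lost when the 16 adipose libraries were fitted alone (2.21, edgeR adjusted p = 0.161). Between pop2 and pop1, Napsa was higher in pop2 (edgeR adjusted p = 2.05e-04), once more as 1 of 9 members, against 0.466% of all genes. With 151 counts in pop2 and 9 in pop1, the ratio was 22.0 (95% interval 11.3 to 49.1, counting error only). These comparisons share the libraries of pop3 and of pop2. The summed level of olfactory and vomeronasal receptor genes, which these cells are not known to use, was 78.9 to 189 CPM in pop4, 192 to 655 in pop3, 386 to 682 in pop2 and 243 to 638 in pop1. With that sum as a covariate, Napsa differed between pop4 and pop3 by 2.71 (edgeR adjusted p = 0.0124). The sums of pop4 and pop3 do not overlap, so this fit cannot tell the sum and the population apart.

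Relatives of Napsa did not share this order. Of 3 other aspartic protease genes, 2 of which passed the filter, Ctsd, the lysosomal cathepsin D, rose in pop4 against pop3 by 0.71 (SE 0.21, edgeR adjusted p = 0.0453), with means of 360, 221, 271 and 357 CPM in pop4, pop3, pop2 and pop1 and 172 CPM in monocytes. Ctse, cathepsin E, averaged 0.655 to 2.55 CPM in the adipose populations and 28.4 CPM in monocytes, and Ren1 averaged at most 0.660 CPM anywhere. Among the 18 other classical monocyte genes, Chil3 (2.55, SE 0.57, edgeR adjusted p = 0.0103) and Lyz2 (0.39, SE 0.10, edgeR adjusted p = 0.0204) rose in pop4 against pop3. With DESeq2's size factors in the same edgeR fit, Ctsd (0.58, adjusted p = 0.0695) and Lyz2 (0.25, adjusted p = 0.117) were no longer called. F13a1, which encodes a subunit of coagulation factor XIII, and Csf1r fell, by 1.52 and 0.76 on the log2 scale. Between pop2 and pop1, Ccr2 was the one of the 18 called, and it was higher in pop2 by 4.17 (SE 0.57, edgeR adjusted p = 4.19e-04).

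On a high fat diet, Napsa was higher in pop3, with 29.8 and 111 CPM in the HFD libraries, against 12.96 and 5.84 CPM in the CD libraries. The groups did not overlap, and the difference was 2.90 on the log2 scale (SE 0.50, edgeR adjusted p = 0.0202). Napsa was the only one of the 9 members called, against 0.0943% of all genes tested. The call did not hold without pop3 HFD3 (1.66, edgeR adjusted p = 0.114), without pop3 CD-CD8 (2.48, edgeR adjusted p = 0.184), with the receptor-gene sum as a covariate (2.499, edgeR adjusted p = 0.194) or with adipose libraries alone (2.91, edgeR adjusted p = 0.438). That sum was 326 and 192 CPM in the HFD libraries of pop3, against 419 and 655 CPM in its CD libraries. In pop4, Napsa differed by 0.19 between HFD and CD libraries (SE 0.45, edgeR adjusted p = 1), and 0 of 9 members were called. In that comparison edgeR called 0.0354% of all genes, 1186 genes had an unadjusted p under 0.05, and DESeq2 called 131 genes. In monocytes, Napsa differed by -0.02 (SE 0.32, edgeR adjusted p = 1). Whether the diet difference of pop3 exceeded those of pop4 and of monocytes was not tested.

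**Figure D3:**
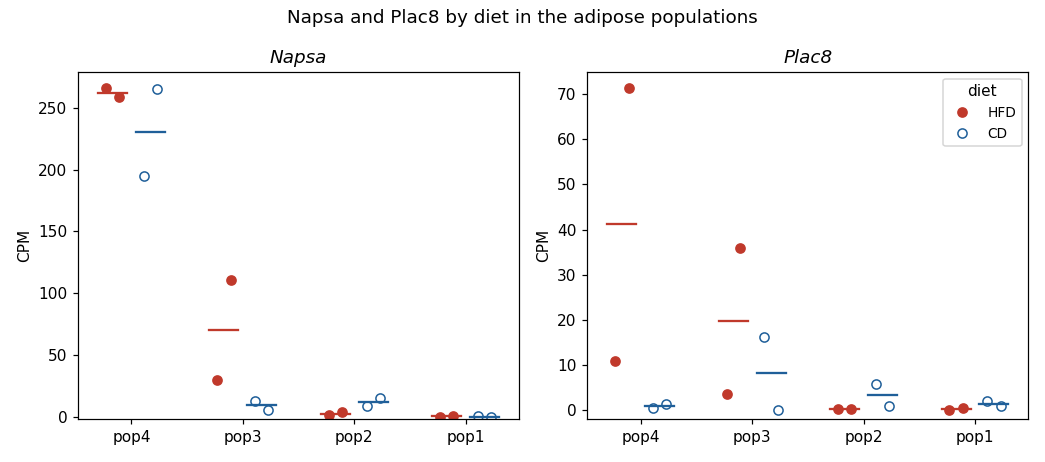
CPM of Napsa and Plac8 in each adipose library, with HFD libraries (filled) left of CD libraries (open) in every population, and lines at group means. Napsa in pop3 has 29.8 and 111 CPM in HFD libraries and 12.96 and 5.84 CPM in CD libraries, and Plac8 in pop4 has 10.96 and 71.4 CPM in HFD libraries and 0.522 and 1.34 CPM in CD libraries.

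Plac8 kept a trace in the Tim4- populations. It had 10.96 and 71.4 CPM in pop4 HFD2 and HFD3, against 0.522 and 1.34 CPM in pop4 CD-CD7 and CD-CD8. In pop3 it had 3.54 and 35.9 CPM in HFD2 and HFD3, against 16.2 and 0.188 CPM in CD-CD7 and CD-CD8, and in pop2 and pop1 it did not exceed 5.73 CPM. The HFD libraries of pop4 lay above its CD libraries, whereas those of pop3 overlapped. The diet difference in pop4 was 5.44 on the log2 scale (SE 1.23) and was not called by edgeR (adjusted p = 0.272), though DESeq2 called it (adjusted p = 0.00338). Between pop3 and pop2 the difference was 3.61 (SE 0.92, edgeR adjusted p = 0.062), which became 0.97 without pop3 CD-CD7 (edgeR adjusted p = 0.914). It was called without pop3 HFD2 (4.06, edgeR adjusted p = 0.0236), without pop3 CD-CD8 (4.21, edgeR adjusted p = 0.00727) and by DESeq2 (adjusted p = 0.00519). In the same pop4 libraries the sum of 5 B cell genes was 117 and 68.8 CPM in HFD2 and HFD3, against 3.13 and 10.4 CPM in CD-CD7 and CD-CD8. Of the B cell genes, Cd79a, Cd79b and Ms4a1 were higher in both HFD libraries, and Pax5 was at or near 0 throughout. In pop3 the B cell sum was 44.3 and 54.8 CPM in HFD2 and HFD3, against 93.1 and 22.2 CPM in CD-CD7 and CD-CD8. In pop2 it was 7.12 and 6.51 CPM in HFD2 and HFD3, against 1.32 and 50.7 CPM in CD-CD7 and CD-CD8. The part of B cells in the Plac8 values was not tested.

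Ly6c2 and Ly6i lie in the same gene cluster and were both nearly absent from adipose cells. Ly6c2 had 0.616 and 12.5 CPM in pop4 HFD2 and HFD3, against 0.391 and 1.34 CPM in CD-CD7 and CD-CD8. In pop3 it had 0.354 and 1.14 CPM in HFD2 and HFD3, against 21.8 and 2.07 CPM in CD-CD7 and CD-CD8, so these groups did not overlap. In pop2 and pop1 it did not exceed 1.98 CPM. The diet difference in pop3 was -3.97 on the log2 scale (SE 0.99) and was not called by edgeR (adjusted p = 0.125), whereas DESeq2 called it (adjusted p = 0.00489). Without pop3 CD-CD7 it was -1.42 (edgeR adjusted p = 0.691). Ly6c1, with which Ly6c2 shares sequence, had 37.1 and 58.9 CPM in pop3 HFD2 and HFD3, against 59.5 and 21.7 CPM in pop3 CD-CD7 and CD-CD8, and averaged 5.19 CPM in monocytes. The part of Ly6c1 reads in the Ly6c2 values was not tested. Ly6i did not exceed 0.487 CPM in any adipose library and reached 3 counts in 3 of 16. Of 8 other genes of the Ly6 family, 5 of which passed the filter, Ly6e was the one called between pop4 and pop3, where it fell by 1.88 (SE 0.23, edgeR adjusted p = 2.88e-05). It averaged 136, 522, 659 and 708 CPM in pop4, pop3, pop2 and pop1 and 1000.4 CPM in monocytes.

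Trem3, Bmx and Cd177 were at or close to the floor in adipose tissue. Trem3 reached at most 1.40 CPM, in pop2 HFD3, Bmx at most 1.93 CPM, in pop3 HFD3, and Cd177 at most 3.95 CPM, in pop2 HFD3. They reached 3 counts in 6, 4 and 10 of the 16 adipose libraries. Within their families, these members stood among genes of other patterns. Trem2, the lipid-sensing receptor of macrophages, averaged 99.8, 81.4, 107 and 136 CPM in pop4, pop3, pop2 and pop1 and 75.4 CPM in monocytes, and Treml4 averaged at most 2.01 CPM in adipose populations and 105 CPM in monocytes. Tec and Btk, kinases related to Bmx, averaged 105 to 194 CPM and 22.6 to 71.7 CPM in adipose populations, and 99.3 and 68.2 CPM in monocytes.

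Vcan was detected at 3 counts or more in all 16 adipose libraries. It had 0.369 and 1.98 CPM in pop4 HFD2 and HFD3, against 1.43 and 2.15 CPM in CD-CD7 and CD-CD8, and 2.60 and 23.9 CPM in pop3 HFD2 and HFD3, against 1.24 and 6.78 CPM in CD-CD7 and CD-CD8. In pop2 it had 1.19 and 8.14 CPM in HFD2 and HFD3, against 3.09 and 2.61 CPM in CD-CD7 and CD-CD8, and in pop1 5.50 and 1.79 CPM in HFD2 and HFD3, against 35.1 and 4.09 CPM in CD-CD7 and CD-CD8. The diet groups overlapped in all 4 populations, and pop1 CD-CD7 was the highest adipose library. Its relatives Acan, Bcan and Ncan averaged at most 3.32 CPM in any population.

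Hp varied more between libraries of one population than between populations. It had 14.9 and 19.0 CPM in pop4 HFD2 and HFD3, against 6.13 and 2.15 CPM in CD-CD7 and CD-CD8. In pop3 it had 39.7 and 4.78 CPM in HFD2 and HFD3, against 1.78 and 55.0 CPM in CD-CD7 and CD-CD8, and in pop2 38.0 and 1.40 CPM in HFD2 and HFD3, against 1.10 and 54.6 CPM in CD-CD7 and CD-CD8. In pop1 it had 2.20 and 0.324 CPM in HFD2 and HFD3, against 17.5 and 44.7 CPM in CD-CD7 and CD-CD8. It exceeded 10 CPM in 8 of 16 adipose libraries, and the diet groups overlapped in pop3 and pop2 and not in pop4 and pop1. For Hp, edgeR called neither a difference between neighbouring populations (adjusted p 0.289 to 0.987) nor one for diet in pop4, pop3 or monocytes, and diet was not tested in pop2 and pop1. HFD and CD libraries lay apart in opposite directions in 2 adipose populations for 4 of the 9 members (Napsa, Plac8, Cd177 and Hp), against 26.1% of all genes tested. Adipoq, a defining gene of adipocytes, had 104 and 176 CPM in the CD-CD8 libraries of pop3 and pop2, where Hp was highest. It had 0.396 CPM in pop2 HFD2, where Hp was 38.0 CPM, and 101 CPM in pop3 HFD3, where Hp was 4.78 CPM. The sum of 10 adipocyte genes was 55.1 to 421 CPM in adipose libraries and 3.53 to 12.0 CPM in monocytes. This sum was 365 and 421 CPM in the CD-CD8 libraries of pop3 and pop2, 113 CPM in pop2 HFD2 and 291 CPM in pop3 HFD3. In pop3 HFD2 and pop1 CD-CD8, where Hp was 39.7 and 44.7 CPM, it was 122 and 178 CPM. The part of adipocytes in the Hp values was not tested.

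Within monocytes, diet moved none of the 9 members past the threshold, against 0.0059% of all genes tested (1 gene; 1169 had an unadjusted p under 0.05, and DESeq2 called 140). The members' differences ran from -0.39 for Vcan to 0.58 for Bmx, with a median of 0.18, against -0.08 for all genes tested. Cd177 had 191 to 251 CPM in HFD libraries and 135 to 193 CPM in CD libraries, and its difference was 0.35 (SE 0.53, edgeR adjusted p = 1). The SEs given for diet in monocytes come from the fit over all 25 libraries, adipose ones included, and not from monocytes alone. In the fit of monocyte libraries used for the title series, the SE was 0.16 for Cd177 and 0.10 for Napsa. With monocyte libraries alone, edgeR called 0 genes for diet. Bmx had 220, 46.7 and 123 CPM in the 3 HFD libraries, against 47.8 to 121 CPM in the 6 CD libraries. The diet groups overlapped for all 9 genes.

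The title series of the control monocytes were compared after the data were seen. Vcan had 346, 348 and 290 CPM in the CD-CD libraries, against 482, 791 and 859 CPM in the CD libraries. Ly6i had 95.1, 103 and 103 CPM in the CD-CD libraries, against 154, 141 and 128 CPM in the CD libraries, and Bmx had 56.0, 87.8 and 47.8 CPM, against 102, 108 and 121 CPM. Every CD-CD library lay below every CD library for these 3 of the 9 members, against 9.37% of 11308 genes tested in monocytes, and above for 0 members, against 6.76%. The largest of the differences was that of Vcan, at -1.07 (SE 0.31, edgeR adjusted p = 0.526). The members' median was -0.46, against -0.0015 for all genes. Of the 18 other classical monocyte genes, 17 were tested here, with a median of -0.13. For 4 of them every CD-CD library lay below every CD library, and for 0 above. By edgeR 0 genes were called in this comparison, 876 had an unadjusted p under 0.05, and DESeq2 called 274. In the same libraries the sum of 5 T cell genes was 56.1 to 225 CPM in the CD-CD libraries, against 2.64 to 49.7 CPM in the CD libraries, that of 5 NK cell genes was 117 to 199 CPM, against 0.378 to 107 CPM, and that of 5 B cell genes was 79.7 to 113 CPM, against 4.98 to 66.4 CPM. Pax5 of the B cell genes and Ncr1 of the NK cell genes were at or near 0 in all of these libraries, and Cd79b made up nearly all of the B cell sum except in CD1. The sum of 5 primary granule genes was 1.002 to 47.0 CPM in the CD-CD libraries, against 14.0 to 138 CPM in the CD libraries. The part of other cells in these differences was not tested.

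**Figure D4:**
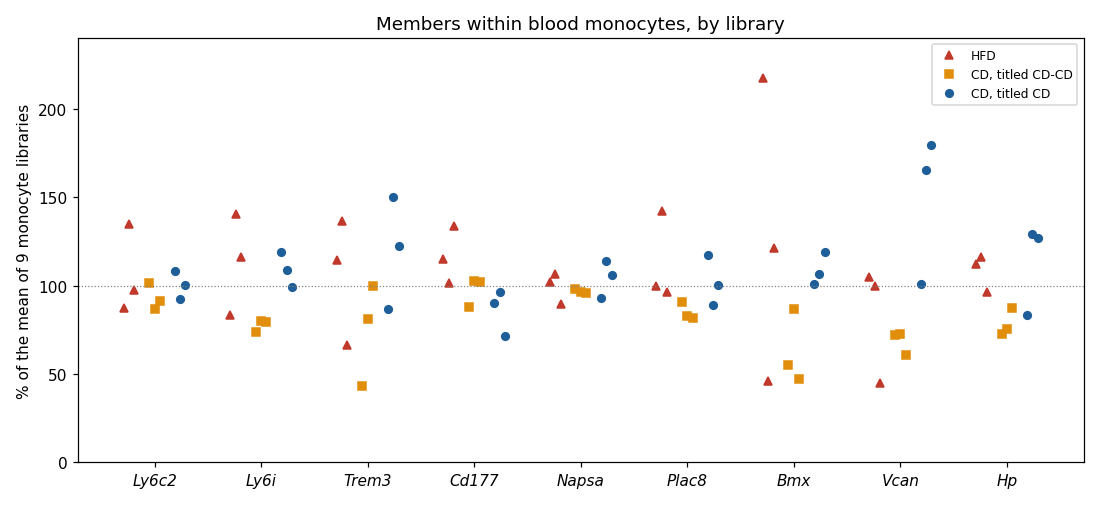
Each member in the 9 monocyte libraries, as percent of its mean over those libraries, with HFD libraries as triangles, CD-CD titled libraries as squares and CD titled libraries as circles. For Ly6i, Bmx and Vcan all squares lie below all circles, and Napsa stays close to 100% throughout.

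Across the 25 libraries, the correlations between members were highest among 4 of them. Ly6i, Trem3, Cd177 and Bmx had pairwise Pearson correlations of log2(CPM + 1) of 0.98 to 0.99, whereas Napsa reached 0.62 to 0.82 with the other 8. These values are descriptions over 25 libraries that share a large gap between monocytes and adipose tissue, and they carry no p. The members were chosen on that gap. Correlations within monocytes alone were not computed, so the values do not show that these genes vary together there. Among the genes outside the list, Mmp8 was the most similar to Ly6i (0.987), Trem3 (0.986), Cd177 (0.986), Bmx (0.976) and Ly6c2 (0.959). The genes nearest to Napsa were Tmsb10, which encodes an actin-binding thymosin (0.971), Sirpb1a (0.960) and Sirpb1b (0.954). Nearest to Plac8 were Sorl1 (0.951), Chil3 (0.942) and Itgal (0.941), nearest to Vcan Mirt1 (0.945), and nearest to Hp Exoc6 (0.887).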

How the data were processed

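RNA was measured in 25 libraries of sorted mouse cells, 16 from adipose tissue and 9 of blood monocytes. The authors deposited 1 table of raw read counts for 24537 RefSeq gene models. Reads were aligned with STAR 2.5.3a to mm10 and counted with HOMER, per the submitters' processing notes. Whether strand was used, whether duplicates were removed, how multi-mapping reads were treated and which annotation version was used are not given in the sources used here.

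Population and diet defined 10 groups of libraries. Genes were kept with filterByExpr (16961 of 24537), scaled by TMM and tested with edgeR 4.0.16 (R 4.3.3) in 1 quasi-likelihood fit over all 25 libraries, with 15 residual degrees of freedom and a biological coefficient of variation of 0.749. P-values were adjusted by Benjamini-Hochberg over all genes tested, at a threshold of 0.05. DESeq2 1.42.0 was an alternative. The fit was run on simulated data of less spread than these, with changes set in well-counted genes only. That run does not speak for members near the floor. The 9 genes and all lists were chosen with earlier results of these data known. All members are named, and of each list the called genes with the largest differences or the most abundant ones. The adipocyte, sort-gate and title-series comparisons were added after the data were seen, as were single list genes named beside a member (Ly6c1, Cd79a, Cd79b, Ms4a1, Pax5, Adipoq, Mmp8, Ccr2, Trem2, Tec, Btk).

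Over all genes tested, libraries of the same title did not deviate together (correlations of deviations from group means of -0.039 to 0.073, with 0 above 0.1), and numbers were not used as pairs. With 2 libraries per adipose group the deviations mirror each other, so both titles of a diet gave the same adipose correlations. Single genes may still follow the title. Hp was higher in HFD2 than HFD3 and in CD-CD8 than CD-CD7 in pop3, pop2 and pop1, with the reverse in pop4. Depth limits values under the floor of 3 counts per library.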

Additional observations from a re-analysis of the deposited data

Results flagged for a closer look

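For Napsa, Plac8, Cd177 and Hp, every HFD library lay on one side of every CD library in one adipose population and on the other side in another. This was true of 4 of the 9 members, against 26.1% of all genes tested. Whether the members' count exceeds that share was not tested. Several libraries were at or near the floor of 3 counts. Plac8 had 2 and 1 counts in pop2 HFD2 and HFD3, and 1 and 3 in pop1 HFD2 and HFD3. Cd177 had 0 and 0 counts in pop3 HFD2 and HFD3, against 5 and 11 in CD-CD7 and CD-CD8. In pop2, Cd177 had 6 and 17 counts in HFD2 and HFD3, against 4 and 3 in CD-CD7 and CD-CD8. Each group holds 2 libraries, and of the contrasts given here edgeR called that of Napsa in pop3 and not those of Plac8 and Hp in pop4 or of Cd177 in pop3, while diet was not tested in pop2 and pop1. The difference between the populations was not tested. Napsa averaged 70.4 CPM in HFD libraries of pop3, against 9.40 CPM in its CD libraries, and 2.69 CPM in HFD libraries of pop2, against 12.0 CPM in its CD libraries. Plac8 averaged 41.2 CPM in HFD libraries of pop4, against 0.933 CPM in its CD libraries. It averaged 0.314 CPM in HFD libraries of pop2, against 3.30 CPM in its CD libraries, and 0.312 CPM in HFD libraries of pop1, against 1.51 CPM in its CD libraries. Hp averaged 16.96 CPM in HFD libraries of pop4, against 4.14 CPM in its CD libraries, and 1.26 CPM in HFD libraries of pop1, against 31.1 CPM in its CD libraries. Cd177 averaged 0 CPM in HFD libraries of pop3, against 1.48 CPM in its CD libraries, and 2.57 CPM in HFD libraries of pop2, against 0.702 CPM in its CD libraries. In all of these adipose contrasts the CD libraries are also the CD-CD title series.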

How the results depend on the processing

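Of the counts of called genes under alternatives, 74 stayed within 1.5 times of the reported count and 39 did not. Of the member differences, 417 kept sign and call, 6 lost a call, 5 gained one and 30 changed sign, each of a difference that was not called. The 4 calls of Napsa kept their direction throughout, and those between pop4 and pop3 and between pop2 and pop1 kept their call under every alternative run. With the receptor-gene covariate, 141 genes were called between pop4 and pop3, 103 between pop3 and pop2 and 1 for diet in pop3. With adipose libraries alone, 16 were called between pop3 and pop2, 19 between pop2 and pop1 and 0 for diet in pop3. DESeq2 called 2524, 994 and 559 genes between neighbouring populations from pop4 to pop1, and 140, 131 and 699 for diet in monocytes, pop4 and pop3. It called 274 genes between the title series of control monocytes. For diet in monocytes, upper-quartile factors gave 2 calls, and monocyte libraries alone or controls titled CD alone gave 0.

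With the replicate block, 554 genes were called between pop4 and pop3, 30 between pop3 and pop2 and 26 between pop2 and pop1, and for diet in monocytes 0 with titles CD and HFD only. Napsa between pop3 and pop2 then had a difference of 2.15 (edgeR adjusted p = 0.053). The libraries share only a number, and no pair correlated above 0.1 over all genes tested.

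Leaving out each library gave 379 to 827 calls between pop4 and pop3, 107 to 378 between pop3 and pop2, 55 to 215 between pop2 and pop1, 1 to 6 for diet in monocytes, 2 to 16 in pop4 and 5 to 87 in pop3, and 0 to 0 between the title series. Shares above 5% were 3 to 5. The cause of these changes was not tested.

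Sign changes were as follows. For diet in monocytes, Napsa was at 4.9e-04 with no filter. With the covariate, Plac8 was at -0.014 and Ly6c2 at -0.073, and Napsa in pop4 at -0.090. With controls titled CD, Trem3 was at -0.15 and Hp at -0.055, and with controls titled CD-CD Vcan was at 0.19. With the block, Trem3 was at -0.21, Bmx at -0.029 and Hp at -0.050. Leaving out libraries, the diet difference in monocytes ran from -0.043 to 0.98 for Bmx, -0.10 to 0.37 for Trem3 (-0.035 without Mono CD-CD6), -0.067 to 0.26 for Ly6c2 and -0.069 to 0.051 for Napsa, and in pop4 from -0.018 to 0.44 for Napsa. In pop3 it ran from -2.54 to 3.65 for Hp, -1.20 to 6.61 for Plac8 and -0.61 to 3.43 for Vcan. Between populations, Hp ran from -2.04 to 0.37 (pop4 against pop3), -1.82 to 2.43 (pop3 against pop2) and -0.46 to 2.84 (pop2 against pop1), and Plac8 from -1.97 to 1.64 (pop4 against pop3). Between the title series, Ly6c2 ran from -0.15 to 0.015.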
